A study of Mus musculus with 23 samples.

Results

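The collagen genes of the mouse were followed in macrophages sorted from uninjured and infarcted hearts. Collagen genes were those of the count table that are annotated as protein coding and whose symbol is Col, a number, the letter a and a number, such as Col1a1. The rule found 44 genes among the 54532 genes of the table. Of these, 39 passed the low-count filter and were tested. The 23 libraries came from C57BL/6 mice in 6 groups. Control mice (S7fl/fl) carried loxP-flanked Smad7, which encodes an inhibitor of TGF-beta signalling inside the cell. MyS7KO mice carried the same floxed Smad7 and, in addition, Cre recombinase under the LyzM promoter, which is active in monocytes, macrophages and neutrophils. Hearts were taken without infarction (baseline, replicates 1 to 3 of each genotype), 3 days after permanent ligation of the left anterior descending coronary artery (replicates 1 to 5 of each) or 7 days after it (replicates 2, 3 and 4 of S7fl/fl and 1, 3, 4 and 5 of MyS7KO). Cells were separated magnetically as Ly6G- and then CD11b+, so that neutrophils were depleted and myeloid cells kept. The labels give neither age nor sex. They also do not say whether every library was made from its own heart, and the spread that the p-values rest on may in part be technical.

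Collagens are secreted proteins built from alpha chains that wind into a triple helix, and each gene encodes 1 kind of chain. Fibrillar collagens form the tension-bearing fibres of scar and are made in the heart chiefly by fibroblasts. Network-forming type IV collagen is the scaffold of basement membranes around vessels and muscle cells, and type VI forms beaded filaments beside them. Fibril-associated collagens decorate the surface of fibres, while transmembrane collagens stay anchored in the plasma membrane.

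The libraries held 15479402 to 23884938 counts each. Smad7 was lower in the MyS7KO libraries without overlap at every time, at 19.7 to 48.7 against 53.1 to 61.2 counts per 1000000 counts of the scaled library (CPM) at baseline, 10.5 to 19.9 against 30.4 to 42.0 at day 3 and 16.04 to 33.4 against 57.4 to 70.2 at day 7. Its adjusted p did not pass in edgeR (0.999, 0.11 and 0.0702), while DESeq2 and limma-voom called it at days 3 and 7. Lyz2, the gene whose promoter drives Cre, was lower in MyS7KO at each time (log2 change -0.90, -0.92 and -0.97, adjusted p 0.019, 0.000229 and 0.00177). The baseline call of Lyz2 ended when any 1 of 5 baseline libraries was left out (adjusted p 0.064 to 0.771). Its baseline and day 7 calls ended with only the groups compared in the fit (adjusted p 0.999 and 0.308). Xist and Y-linked genes placed all 4 MyS7KO day 7 libraries as female and all 3 S7fl/fl day 7 libraries as male, so genotype and sex cannot be told apart at that time. By the stronger signal, 2 of 3 S7fl/fl and 1 of 3 MyS7KO baseline libraries were female, and 2 of 5 and 3 of 5 at day 3. Day 7 therefore also differs from the earlier times in sex make-up, in opposite directions in the genotypes. A day 3 library of S7fl/fl and 2 of MyS7KO carried a signal of both sexes. When these 3 were left out, Lyz2 did not pass at day 3 (adjusted p 0.0817). Collagen genes took 0.0639 to 0.807% of all counts of a library, with the lowest share in S7fl/fl day 3 replicate 4 and the highest in MyS7KO day 7 replicate 1. MyS7KO baseline replicate 3 stood below its group, at 0.126% against 0.241 and 0.302%. MyS7KO day 3 replicate 1 stood above its group, at 0.251% against 0.139 to 0.190%, and S7fl/fl day 7 replicate 2 above its own, at 0.477% against 0.191 and 0.241%.

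Expression reached every collagen class. All 11 fibrillar genes, 6 of 6 type IV genes, 2 of 3 genes of types VIII and X, 4 of 6 type VI genes, 7 of 9 fibril-associated genes, both multiplexins, 4 of 4 transmembrane collagens and 3 of 3 remaining genes passed the filter. Col6a4 and Col10a1 were not detected, with at most 2 and 3 counts in any library, where 3 counts was the limit taken for detection. Col6a5, Col9a1 and Col19a1 were detected but stayed below the filter, with at most 7, 4 and 4 counts in any library. Col10a1 encodes the short-chain collagen of growth-plate cartilage, and Col9a1 a chain of the fibril-associated type IX of cartilage.

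Levels of different genes were set side by side as FPKM, fragments per kilobase of gene length and per 1000000 fragments. By median FPKM over the 23 libraries the 6 leading genes were Col4a1 at 61.8, Col4a2 at 48.4, Col3a1 at 26.0, Col1a1 at 25.6, Col14a1 at 13.5 and Col15a1 at 13.5. Col4a1 and Col4a2 encode the common type IV chains of nearly all basement membranes, and Col1a1 and Col3a1 the main chains of type I and type III fibres. Col14a1 encodes a fibril-associated collagen and Col15a1 a multiplexin of the basement membrane zone. The order differed between times. At S7fl/fl baseline Col4a1 stood at 80.8 ± 7.44 FPKM (SD, n = 3), Col3a1 at 18.4 ± 4.79 and Col1a1 at 12.48 ± 3.74. At S7fl/fl day 7 they stood at 42.9 ± 16.4, 73.3 ± 33.7 and 74.5 ± 41.4 (n = 3), with SDs wide enough that the 3 genes overlapped. In MyS7KO they stood at 78.5 ± 34.8, 16.4 ± 6.21 and 11.4 ± 6.695 at baseline (n = 3) and at 89.7 ± 44.1, 126 ± 58.7 and 114 ± 40.9 at day 7 (n = 4), again overlapping at day 7.

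Between baseline and day 3, more collagen genes fell than rose. In S7fl/fl, edgeR's quasi-likelihood test called 18 of 39 lower and 0 higher, beside a background over all 16545 genes tested of 34.1% called lower and 29.9% higher. In MyS7KO it called 17 lower and 2 higher, beside 35.2% and 30.7%. The median log2 change of the 39 genes was -0.85 and -0.80, against -0.06 and -0.10 over all genes tested. The higher calls lay below the background share in both genotypes. The lower calls were 46.2% of the collagen genes tested in S7fl/fl, above it, and 43.6% in MyS7KO, nearer to it. Without MyS7KO baseline replicate 2 the 19 MyS7KO calls of both directions became 14.

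Between day 3 and day 7 the movement was upward. In S7fl/fl, 20 of 39 collagen genes were higher at day 7 and 0 lower, beside a background of 11.5% higher and 10.1% lower. In MyS7KO, 30 were higher and 0 lower, beside 20.5% and 19.1%. The medians were 1.29 and 2.03 on the log2 scale, against 0.01 and 0.08 over all genes tested. All 20 genes called in S7fl/fl were also called in MyS7KO. These counts include genes that passed the filter only through day 7 libraries, so that their calls are not independent of it. They were Col2a1 and Col9a2 in both genotypes and Col24a1 and Col26a1 in MyS7KO. Col22a1, called in MyS7KO alone, rested on 0 to 2 counts at day 3 and 0 to 26 at day 7. The S7fl/fl count rested partly on 1 library: without S7fl/fl day 7 replicate 2 it was 12, of which 11 were higher and 1, Col13a1, lower.

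At day 7 against baseline, collagen genes were called in both directions. In S7fl/fl 15 genes were higher and 10 lower, beside a background of 24.8% and 25.4%. In MyS7KO 16 were higher and 7 lower, beside 22.2% and 21.8%. The higher calls, 38.5 and 41.0% of the collagen genes tested, lay above the background. The lower calls, 25.6 and 17.9%, were near it or below it, so that they are no result about the family as a whole. The same 15 genes were higher in both genotypes, and Col26a1 passed in MyS7KO and not in S7fl/fl, a difference between genotypes that did not itself pass (adjusted p 0.91). The 15 comprised 9 fibrillar genes, both type VIII genes and 4 fibril-associated genes. All 7 genes lower in MyS7KO were lower in S7fl/fl too: Col4a3, Col4a4 and Col4a6 of type IV, Col6a6 of type VI, the transmembrane Col23a1 and Col25a1, and the fibril-associated Col20a1. The transmembrane Col13a1, the fibrillar Col27a1 and Col28a1 completed the 10 of S7fl/fl. Among the genes counted here, Col2a1, Col9a2, Col24a1 and Col26a1 passed the filter only through day 7 libraries. Col25a1 passed it only through the MyS7KO baseline libraries. The calls of these genes in that direction are therefore not independent of the filter. In bulk RNA, fewer cells of a type and less RNA per cell cannot be told apart, and this holds for every change given here.

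**Figure D1:**
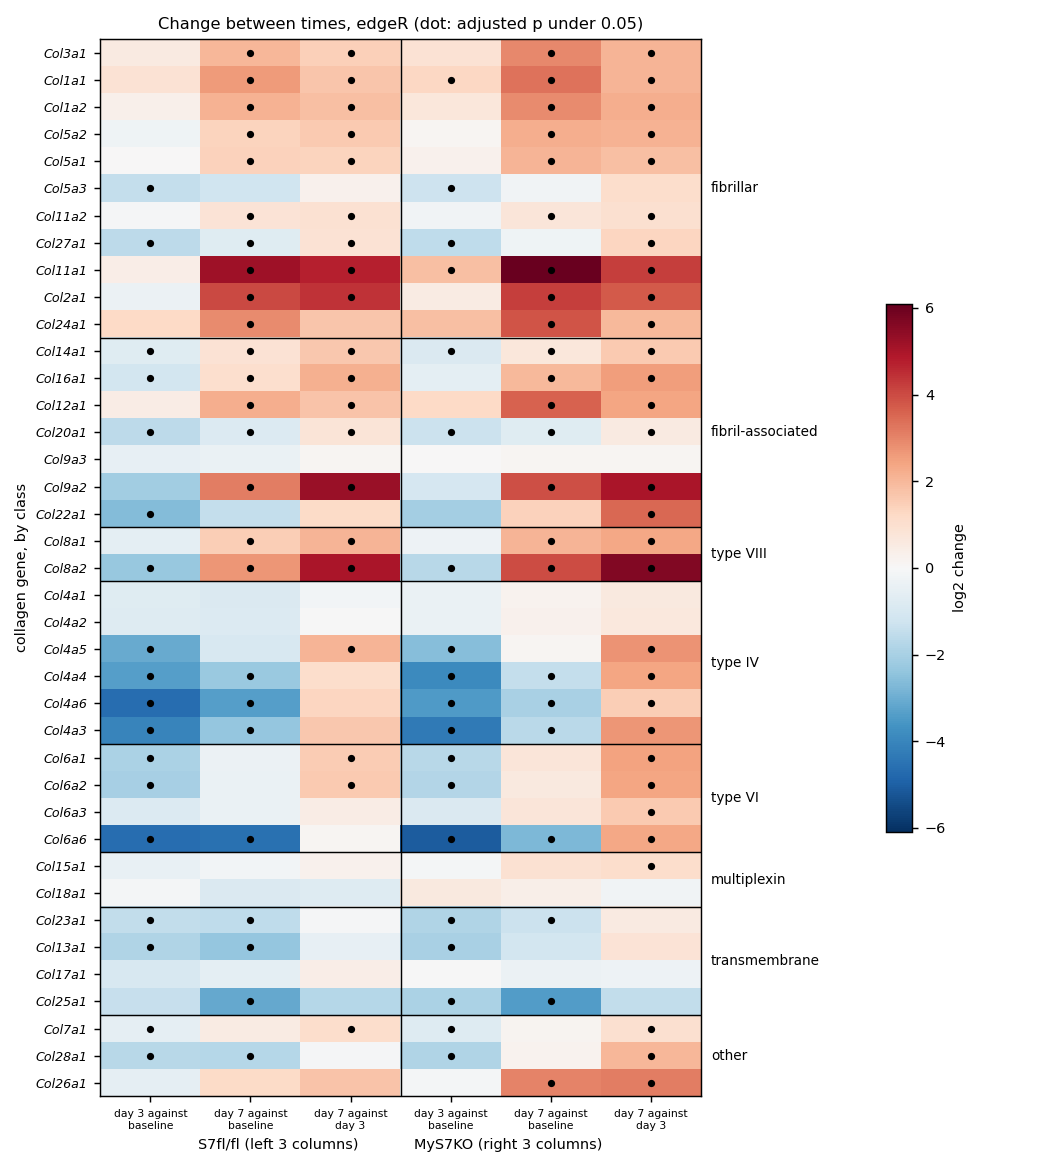
Log2 change of each of the 39 tested collagen genes (vertical axis, grouped by class) in the 6 comparisons of times (horizontal axis, S7fl/fl left and MyS7KO right), with a dot where the adjusted p of edgeR was under 0.05. Most fibrillar and fibril-associated genes and both type VIII genes are red at day 7, while Col4a3, Col4a4, Col4a6 and Col6a6 are blue at both times against baseline. The colours of genes with few counts depend on how the fit treats low values.

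Among the fibrillar genes, Col1a1 and Col1a2 encode the chains of type I collagen, the main protein of scar. Col1a1 (chr11:94936224-94953042, plus strand, GRCm38) stood at 110.1, 71.7 and 66.05 CPM in the S7fl/fl baseline libraries, in the order of their replicate numbers. It stood at 256, 167, 137, 63.3 and 149 CPM at day 3 and at 807, 287 and 401 CPM at day 7. The day 7 libraries all lay above every earlier S7fl/fl library, whereas baseline and day 3 overlapped. Col1a1 rose by 2.59 ± 0.52 to day 7 (log2, SE; adjusted p 0.000435, 6.03-fold), and the difference at day 3 did not pass (0.90 ± 0.45, adjusted p 0.0892). Without S7fl/fl day 3 replicate 4, the library lowest in collagen, the day 3 difference passed (1.10, adjusted p 0.0337).

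In MyS7KO, Col1a1 stood at 119.6, 72.99 and 32.2 CPM at baseline, at 259, 176, 175, 169.9 and 126 CPM at day 3, and at 963, 409.9, 970.5 and 665 CPM at day 7. No library of one time overlapped with those of another. Here the rise to day 3 passed (1.27 ± 0.46, adjusted p 0.0211), as did the rise to day 7 (3.33 ± 0.52, 10.04-fold, adjusted p 5.20e-05). The day 3 call ended without MyS7KO baseline replicate 2 (1.30, adjusted p 0.0525) or replicate 3 (0.91, adjusted p 0.112).

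Col1a2 moved with its partner chain. It stood at 133, 102 and 113 CPM at S7fl/fl baseline and 826, 297 and 406 at day 7, a rise of 2.14 ± 0.48 (adjusted p 0.00129). In MyS7KO it was at 141, 112 and 60.6 CPM at baseline and 1053, 380, 979.7 and 675 at day 7, a rise of 2.88 ± 0.48 (adjusted p 0.000106). At day 3 the difference of Col1a2 passed in neither genotype (adjusted p 0.537 and 0.175). Within day 7, replicate 2 of S7fl/fl and replicates 1 and 4 of MyS7KO were the high libraries for both chains.

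Col3a1 (chr1:45311538-45349706, plus strand) encodes the chain of type III collagen, the fibre that is laid down early in repair. It stood at 234, 147 and 165 CPM at S7fl/fl baseline, 437, 354, 212, 91.8 and 229 at day 3, and 1086, 426 and 687 at day 7. In MyS7KO it stood at 223, 159 and 102 CPM, then 498, 256, 268, 239 and 207, then 1948, 638, 1421 and 966. Every day 7 library was above every baseline library of its genotype, with rises of 2.01 ± 0.52 and 2.94 ± 0.52 (adjusted p 0.00346 and 0.000183).

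From day 3 to day 7 Col3a1 rose in S7fl/fl by 1.47 ± 0.44 (adjusted p 0.0213), with 1 day 3 library, replicate 1, above the lowest day 7 library. In MyS7KO it rose by 2.08 ± 0.42 (adjusted p 0.000586) with no overlap. Without S7fl/fl day 7 replicate 2 the S7fl/fl calls from day 3 to day 7 ended for Col1a1 (1.16, adjusted p 0.105), Col1a2 (1.29, adjusted p 0.0539), Col3a1 (1.07, adjusted p 0.16), Col5a1 (0.85, adjusted p 0.227) and Col5a2 (1.06, adjusted p 0.105). Of these, Col1a1, Col1a2 and Col3a1 kept their call of day 7 against baseline without that library.

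Col11a1 (chr3:114030540-114220718, plus strand), a minor fibrillar chain that helps set fibre diameter, had the lowest p of the collagen genes at day 7 against baseline in both genotypes. In S7fl/fl it stood at 0.454, 0.1697 and 0.342 CPM at baseline (3 to 11 counts), at 0.840, 0.647, 0.470, 0.127 and 0.114 at day 3 and at 20.97, 8.91 and 6.57 at day 7. In MyS7KO it stood at 0.3096, 0.218 and 0.0991 CPM (2 to 6 counts), then 0.795, 0.444, 0.596, 0.934 and 1.02, then 15.8, 13.8, 13.2 and 13.03. All day 7 libraries lay above both earlier times in each genotype. The 4 MyS7KO day 7 libraries lay close together for Col11a1, although their Col1a1 ranged from 409.9 to 970.5 CPM.

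The fitted rises of Col11a1 from baseline to day 7 were 5.16 ± 0.51 in S7fl/fl and 6.03 ± 0.54 in MyS7KO (adjusted p 4.69e-08 and 1.26e-08), sizes that depend on the few baseline counts. From day 3 to day 7 they were 4.74 ± 0.41 and 4.21 ± 0.37. At day 3 a rise passed in MyS7KO (1.81 ± 0.60, adjusted p 0.0109), and in S7fl/fl it did not (0.42 ± 0.57, adjusted p 0.532). The MyS7KO day 3 call ended under limma-voom, on deposited FPKM and without MyS7KO baseline replicate 3 (1.48, adjusted p 0.0612).

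Col2a1, the chain of cartilage type II collagen, and Col24a1, a minor fibrillar chain, were near the limit of detection before day 7. Col2a1 had at most 8 counts in every baseline and day 3 library, and reached 5.32, 1.46 and 1.73 CPM in S7fl/fl and 5.104, 0.703, 2.68 and 2.21 CPM in MyS7KO at day 7. It was higher at day 7 than at baseline in both (adjusted p 0.000411 and 0.000414). Col24a1 had 0 to 6 counts before day 7 and 3 to 24 counts there, and was also called against baseline (adjusted p 0.00723 and 0.00123). The S7fl/fl call of Col24a1 ended without day 7 replicate 2 (2.19, adjusted p 0.0627).

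Col5a1 and Col5a2 encode the type V chains that nucleate type I fibres. Col5a1 stood at 34.9 to 43.1 CPM at S7fl/fl baseline and 61.3 to 158 at day 7, and at 18.7 to 53.1 and 94.2 to 238 CPM in MyS7KO. It rose by 1.40 ± 0.48 and 2.08 ± 0.47 (adjusted p 0.0204 and 0.00148). Col5a2 rose by 1.36 ± 0.46 and 2.22 ± 0.46 (adjusted p 0.02 and 0.000696). Both S7fl/fl calls ended with sex as a covariate and when baseline replicate 2, baseline replicate 3 or day 7 replicate 2 was left out, the last giving 0.89, adjusted p 0.145 for Col5a1 and 0.83, adjusted p 0.156 for Col5a2.

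Col5a3 and Col27a1 departed from this course, and Col11a2 shared the rise at day 7. Col5a3, a further type V chain, stood at 29.6, 28.1 and 22.5 CPM at S7fl/fl baseline and at 14.8, 11.5, 9.804, 4.12 and 8.23 at day 3, all below baseline. It fell there by 1.46 ± 0.47 (adjusted p 0.0104) and in MyS7KO by 1.28 ± 0.46 (adjusted p 0.0209). The MyS7KO call ended without baseline replicate 1 (-0.83, adjusted p 0.175) or replicate 2 (-1.18, adjusted p 0.066). Day 7 of Col5a3 against baseline did not pass in either genotype (adjusted p 0.0692 and 0.733). In S7fl/fl that difference was called under some alternatives, among them DESeq2 (-1.22), limma-voom (-1.24) and only the groups compared (-1.24).

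Col27a1, a fibrillar collagen of cartilage, also fell at day 3, from 16.03 to 22.4 CPM to 4.51 to 8.499 in S7fl/fl and from 16.2 to 21.3 to 4.24 to 9.18 in MyS7KO, without overlap (-1.60 ± 0.24 and -1.57 ± 0.24, adjusted p 6.67e-06 and 7.89e-06). Its lower level at day 7 in S7fl/fl (-0.72 ± 0.28, adjusted p 0.0341) was no longer called without baseline replicate 1, baseline replicate 2 or day 7 replicate 4 (adjusted p 0.101 to 0.195). Col11a2, the partner of Col11a1, rose at day 7, from 5.601 to 8.37 CPM up to 11.6 to 14.4 CPM in S7fl/fl (0.84 ± 0.21, adjusted p 0.00222) and by 0.76 ± 0.20 in MyS7KO (adjusted p 0.0041). Within S7fl/fl day 7 its libraries lay close together where those of Col1a1 ranged from 287 to 807 CPM.

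**Figure D2:**
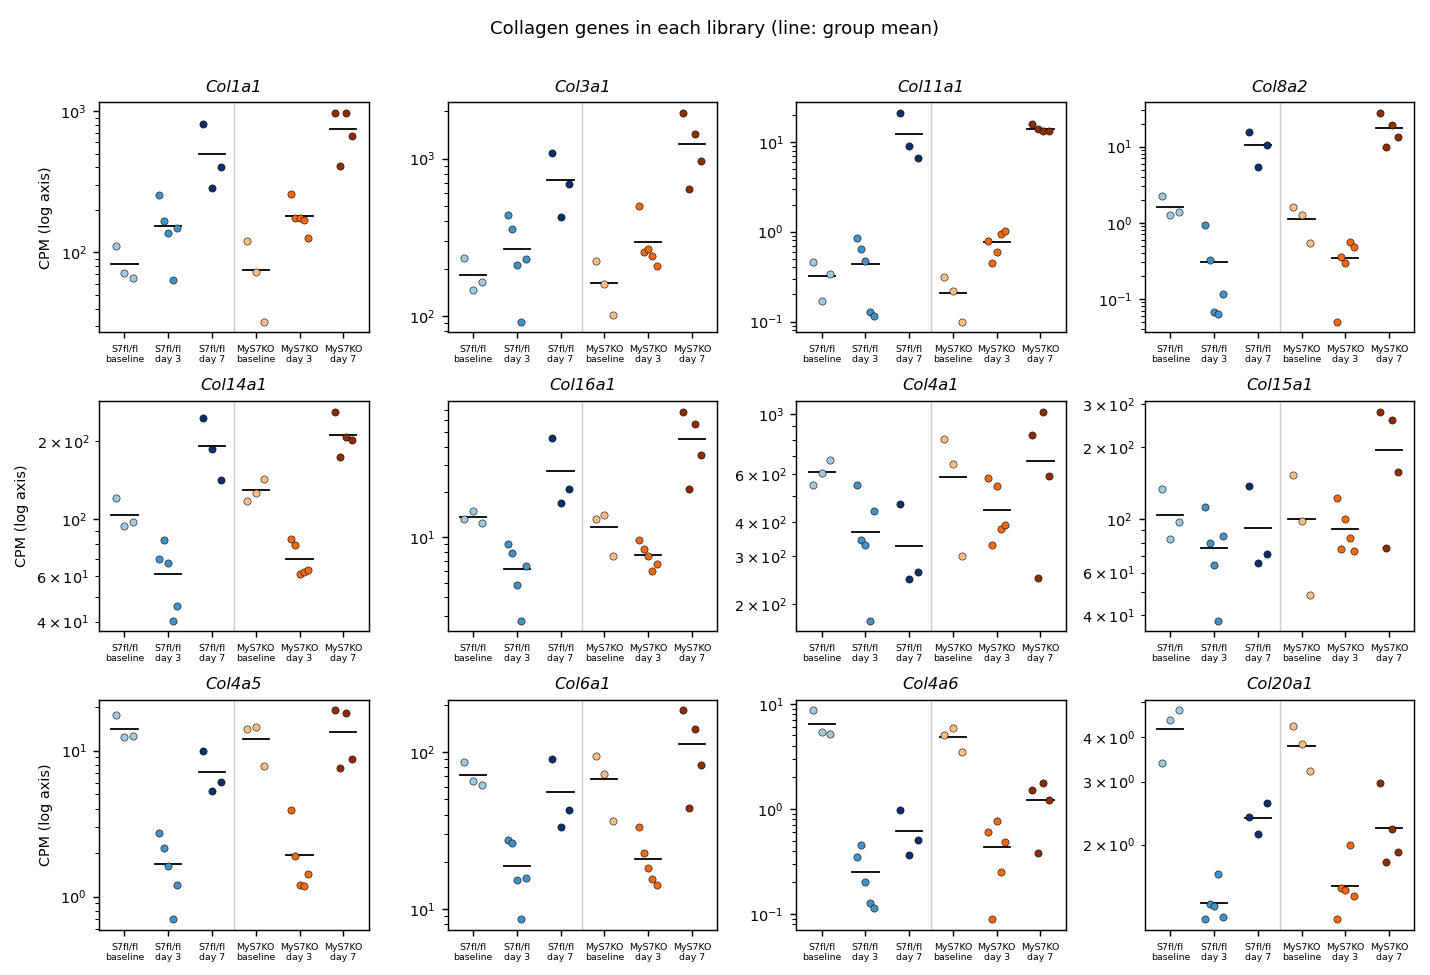
CPM (log axis) of 12 collagen genes in each of the 23 libraries, by genotype and time; points are libraries and lines are group means. Col1a1, Col3a1, Col11a1, Col8a2, Col14a1 and Col16a1 are highest at day 7, Col4a5 and Col6a1 are low at day 3 and higher again at day 7, and Col4a6 and Col20a1 stay below baseline.

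The bases just before the annotated start are shown for 4 genes that rose together at day 7, Col3a1 and Col11a1 from above and Col8a1 and Col8a2 of type VIII, whose values follow. They are RefSeq promoter windows of GRCm38.p6, 5′ to 3′ on the strand of the gene, with no annotated exon inside. Capitals mark 3 motifs on either strand. The TATA box was searched as TATAAA. The second motif, called the CAAT box here, was searched as CCAAT. The GC box was searched as GGGCGG.
Col3a1: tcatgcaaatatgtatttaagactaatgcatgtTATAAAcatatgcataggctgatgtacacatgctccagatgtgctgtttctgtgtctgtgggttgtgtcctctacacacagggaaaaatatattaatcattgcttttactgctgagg
Col11a1: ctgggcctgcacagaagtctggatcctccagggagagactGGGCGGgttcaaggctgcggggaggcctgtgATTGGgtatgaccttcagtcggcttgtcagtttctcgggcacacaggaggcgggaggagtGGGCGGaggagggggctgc
Col8a1: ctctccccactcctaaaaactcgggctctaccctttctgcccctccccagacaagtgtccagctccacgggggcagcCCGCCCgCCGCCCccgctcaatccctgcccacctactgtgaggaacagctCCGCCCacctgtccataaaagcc
Col8a2: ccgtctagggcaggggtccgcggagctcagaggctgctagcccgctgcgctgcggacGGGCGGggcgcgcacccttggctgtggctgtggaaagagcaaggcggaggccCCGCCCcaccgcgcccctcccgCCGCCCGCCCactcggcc
They lie at chr1:45311388-45311537, chr3:114030390-114030539, chr16:57754738-57754887 and chr4:126286644-126286792. The Col3a1 stretch is 37.3% G and C and holds a TATA box, and the other stretches are 64.7, 64.7 and 77.9% G and C and hold GC boxes.

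The 250 bases before the start were searched on both strands, in 38 windows of 35 collagen genes and in all 32851 mouse promoters of the RefSeq table. The GC box was present for 21 of the 35 genes, in 57.9% of the collagen windows and in 32.7% of all promoters. The CAAT box was present for 13 of 35 genes, in 34.2% of the collagen windows and in 33.8% of all. The TATA box was present for 5 of 35 genes, in 13.2% of the collagen windows and in 12.4% of all. The palindrome GTCTAGAC, which Smad proteins can bind, was present in 0 of the collagen windows and in 0.167% of all. No motif is contained in another, copies of the GC box could overlap each other, and a match describes letters only. Col1a1, Col2a1, Col4a3, Col5a2, Col9a3, Col12a1, Col14a1, Col22a1 and Col26a1 had no window.

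Type VIII collagen is a short-chain network collagen of vessel walls and remodelling tissue. Col8a2 (chr4:126286793-126314330, plus strand) stood at 2.27, 1.25 and 1.37 CPM at S7fl/fl baseline, dropped to 0.939, 0.324, 0.0672, 0.0635 and 0.114 at day 3, and reached 15.4, 5.37 and 10.6 at day 7. In MyS7KO it stood at 1.599, 1.25 and 0.545 CPM, then 0.0497, 0.355, 0.298, 0.561 and 0.479, then 27.8, 9.97, 19.4 and 13.3. Day 7 lay above all other libraries in both genotypes, and day 3 below all baseline libraries except for 1 overlap in MyS7KO.

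Col8a2 fell at day 3 by 2.31 ± 0.62 in S7fl/fl (adjusted p 0.00291) and by 1.71 ± 0.65 in MyS7KO (adjusted p 0.0256). It rose from day 3 to day 7 by 4.98 ± 0.56 and 5.67 ± 0.54 (adjusted p 3.75e-06 and 1.46e-07). The day 3 call in MyS7KO ended without MyS7KO baseline replicate 1 (-1.33, adjusted p 0.137), baseline replicate 2 (-1.59, adjusted p 0.0736) or day 3 replicate 1 (-1.42, adjusted p 0.0587). Col8a1, the partner chain (chr16:57624258-57754737, minus strand), stood at 26.1, 29.02 and 38.5 CPM at S7fl/fl baseline and 144, 55.6 and 64.05 at day 7. It rose by 1.495 ± 0.49 (adjusted p 0.0156) there and by 2.08 ± 0.48 in MyS7KO (adjusted p 0.00172), and day 3 did not pass in either (adjusted p 0.242 and 0.562). The S7fl/fl call of Col8a1 ended without day 7 replicate 2 (0.94, adjusted p 0.126) and with sex as a covariate (1.165, adjusted p 0.061).

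Of the fibril-associated collagens, Col14a1 (chr15:55307750-55520803, plus strand), which binds the surface of type I fibres, was the most abundant by FPKM. It stood at 121, 93.8 and 97.01 CPM at S7fl/fl baseline, 69.8, 82.7, 67.5, 40.4 and 45.8 at day 3, and 244, 186 and 141 at day 7. In MyS7KO it was at 117, 126 and 142 CPM, then 83.6, 79.2, 61.2, 62.1 and 63.2, then 259.5, 174, 207 and 201. The times did not overlap in either genotype, with day 3 lowest and day 7 highest.

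All 6 comparisons of times passed for Col14a1. It changed by -0.76 ± 0.20 in S7fl/fl and -0.88 ± 0.20 in MyS7KO at day 3 against baseline (adjusted p 0.00218 and 0.000572). At day 7 against baseline it changed by 0.88 ± 0.23 and 0.71 ± 0.21 (adjusted p 0.00294 and 0.0106), and from day 3 to day 7 by 1.64 ± 0.20 and 1.59 ± 0.19 (adjusted p 5.88e-06 and 1.29e-06). In MyS7KO baseline replicate 3 Col14a1 was the highest of its group, while Col1a1 was the lowest in the same library.

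Col16a1, which links fibres to other matrix, and Col12a1, a collagen of dense connective tissue, were higher at day 7. Col16a1 stood at 13.3, 14.9 and 12.4 CPM at S7fl/fl baseline, 2.79 to 9.04 at day 3 and 45.3, 16.8 and 20.8 at day 7. Its fall at day 3 passed in S7fl/fl (-1.12 ± 0.38, adjusted p 0.0156) and not in MyS7KO (-0.61 ± 0.38, adjusted p 0.172). The day 7 call against baseline in S7fl/fl was close to the threshold (1.03 ± 0.42, adjusted p 0.0494) and ended under 11 alternatives, among them RLE scaling, leaving out any S7fl/fl baseline library (adjusted p 0.0776 to 0.123) and leaving out day 7 replicate 2 (0.48, adjusted p 0.363). In MyS7KO Col16a1 rose from 7.53 to 14.01 CPM at baseline to 20.8 to 68.1 at day 7 (1.96 ± 0.41, adjusted p 0.000882).

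Col12a1 rose from 4.07 to 4.45 CPM at S7fl/fl baseline to 33.1, 11.5 and 14.4 at day 7 (2.20 ± 0.64, adjusted p 0.00772). In MyS7KO it rose from 0.793 to 4.14 CPM to 57.6, 16.9, 44.03 and 27.6 (3.62 ± 0.66, adjusted p 0.00024). The S7fl/fl call of Col12a1 ended without day 7 replicate 2 (1.60, adjusted p 0.0549), a library that was the highest of its group for both genes.

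The fibril-associated cartilage chain Col9a2 had at most 14 counts in every library before day 7. At day 7 it reached 4.73, 2.56 and 2.95 CPM in S7fl/fl and 9.703, 3.64, 6.29 and 3.12 in MyS7KO, above all earlier libraries (adjusted p against day 3 7.53e-05 and 7.69e-06). Of the other chains of type IX, Col9a3 kept 0.745 to 2.48 CPM in all 23 libraries and passed in none of the 6 comparisons of times, and Col9a1 stayed below the filter.

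Col20a1, a fibril-associated collagen of little known function, stayed below its baseline level at both infarct times. It stood at 3.39, 4.47 and 4.75 CPM at S7fl/fl baseline, 1.24 to 1.65 at day 3 and 2.14 to 2.62 at day 7, with baseline above both infarct times. It fell at day 3 by 1.61 ± 0.21 and 1.30 ± 0.21 (adjusted p 6.36e-07 and 1.07e-05) and was lower at day 7 than at baseline in both genotypes (adjusted p 0.00566 and 0.00682). From day 3 to day 7 Col20a1 was called higher in both genotypes. The MyS7KO rise was lost under many alternatives, among them limma-voom (0.48, adjusted p 0.0617) and sex as a covariate (0.49, adjusted p 0.0699). It was also lost without the mixed-sex libraries (0.50, adjusted p 0.124). The S7fl/fl rise was lost without day 7 replicate 4 (0.73). Col22a1, of tissue junctions, was lower at day 3 in S7fl/fl (adjusted p 0.0294) on 0 to 3 counts there against 8 to 13 at baseline. That call ended when any S7fl/fl baseline library or any of day 3 replicates 2, 3 and 5 was left out (adjusted p 0.0501 to 0.0754).

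The type IV genes lie head to head in pairs, each pair transcribed outward from a short shared stretch. The annotated starts of Col4a1 and Col4a2 on chromosome 8 overlap, those of Col4a4 and Col4a3 on chromosome 1 are 71 bases apart, and those of Col4a6 and Col4a5 on chromosome X are 1308 bases apart. The whole stretch between Col4a4 and Col4a3 (chr1:82586850-82586920) and the 150 bases before Col4a6 (chrX:141474077-141474226) are shown because these genes had the deepest falls of the class, both on the minus strand and marked as above.
Col4a4: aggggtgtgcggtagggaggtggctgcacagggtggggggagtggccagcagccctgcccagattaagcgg
Col4a6: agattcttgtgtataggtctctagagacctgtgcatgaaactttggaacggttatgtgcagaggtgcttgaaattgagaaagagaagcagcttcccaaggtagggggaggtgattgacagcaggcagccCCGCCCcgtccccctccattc
None of the 4 motifs occurs in the stretch between Col4a4 and Col4a3, and the Col4a6 stretch holds a GC box on its other strand.

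Col4a1 and Col4a2, the major pair, had no call in any of the 6 comparisons of times in edgeR with all groups in the fit. Col4a1 (chr8:11198423-11312826, minus strand) stood at 549, 606 and 675 CPM at S7fl/fl baseline, 548, 345, 330.5, 174 and 440.2 at day 3 and 467, 248 and 264 at day 7. The MyS7KO values were 806, 653 and 301 CPM, then 582, 331, 543, 379 and 392, then 838, 251, 1020 and 589.8. In S7fl/fl all libraries of both infarct times lay below all 3 baseline libraries, the highest of day 3 by a narrow margin, and the MyS7KO libraries of the 3 times overlapped.

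The S7fl/fl differences of Col4a1 did not pass (-0.73 ± 0.40 at day 3 and -0.90 ± 0.45 at day 7, adjusted p 0.113 and 0.105), and both passed when only the groups compared entered the fit (adjusted p 0.048 and 0.0115). The day 7 difference also passed with limma-voom (adjusted p 0.0489). Those of Col4a2 were -0.78 ± 0.39 and -0.81 ± 0.45 in S7fl/fl (adjusted p 0.0863 and 0.138) and -0.41 ± 0.39 and 0.24 ± 0.42 in MyS7KO (adjusted p 0.361 and 0.664). Without S7fl/fl day 3 replicate 1 the day 3 difference of Col4a2 passed (-0.97, adjusted p 0.045). With only the groups compared, both S7fl/fl differences of Col4a2 passed (adjusted p 0.037 and 0.021). In MyS7KO, limma-voom called Col4a2 lower at day 3 than at baseline (-0.73, adjusted p 0.0439) and higher at day 7 than at day 3 (0.85, adjusted p 0.0433), and the latter also passed without MyS7KO day 7 replicate 3 (0.92, adjusted p 0.0358). Because the genes overlap and the counting is not stated to use strand, reads at their shared start cannot be told apart.

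The minor type IV chains fell at day 3. Col4a3, Col4a4 and Col4a5 form the network of the glomerulus and some other specialised membranes, and Col4a5 with Col4a6 that of smooth muscle. Col4a4 (chr1:82448423-82586849, minus strand) went from 8.47, 7.64 and 7.95 CPM at S7fl/fl baseline to 0.840, 1.04, 0.336, 0.761 and 0.914 at day 3 and 2.93, 0.976 and 1.003 at day 7. In MyS7KO it went from 9.08, 9.65 and 5.05 CPM to 1.19, 0.311, 0.596, 0.125 and 0.4196 and then 5.61, 1.53, 3.44 and 1.11. No day 3 library reached any baseline library, and in MyS7KO 1 day 7 library lay within the baseline range.

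Col4a4 fell at day 3 by 3.35 ± 0.49 and 3.87 ± 0.51 (adjusted p 4.69e-06 and 1.02e-06). At day 7 it was still lower, by 2.28 ± 0.54 on the log2 scale in S7fl/fl (adjusted p 0.00152) and by 1.44 ± 0.47 in MyS7KO (adjusted p 0.0178). The MyS7KO day 7 call ended with sex as a covariate and without MyS7KO baseline replicate 1 or 2 or day 7 replicate 3 or 5 (adjusted p 0.0524 to 0.076).

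Its neighbour Col4a3 stood at 5.45, 1.92 and 4.92 CPM at S7fl/fl baseline and 0.1295 to 0.346 at day 3. It changed by -4.01 ± 0.59 in S7fl/fl and -4.33 ± 0.59 in MyS7KO at day 3 (adjusted p 3.91e-06 and 1.35e-06), and day 7 was also lower than baseline (-2.38 ± 0.61 and -1.64 ± 0.53, adjusted p 0.00266 and 0.0145). The day 7 call in MyS7KO ended with sex as a covariate and without baseline replicate 2 (-1.47, adjusted p 0.0617).

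Col4a6 (chrX:141165403-141474076, minus strand) had the largest fall of the type IV genes at day 3 in S7fl/fl, from 8.63, 5.43 and 5.13 CPM at baseline to 0.346, 0.453, 0.201, 0.127 and 0.114 at day 3 (2 to 7 counts). At day 7 it was at 0.978, 0.366 and 0.501 CPM. In MyS7KO it was at 5.005, 5.89 and 3.47 CPM, then 0.596, 0.0887, 0.775, 0.249 and 0.479, then 1.51, 0.383, 1.75 and 1.21. Baseline lay above both infarct times in each genotype. The falls passed at day 3 (-4.64 ± 0.48 and -3.46 ± 0.45, adjusted p 2.18e-08 and 5.60e-07) and at day 7 (-3.35 ± 0.52 and -1.96 ± 0.43, adjusted p 1.42e-05 and 0.000885). From day 3 to day 7 Col4a3, Col4a4 and Col4a6 were called higher in MyS7KO and not in S7fl/fl. The MyS7KO rises of Col4a3 and Col4a6 were lost with limma-trend on FPKM at pseudocount 1 (adjusted p 0.0567 and 0.133). DESeq2 also called Col4a3 higher in S7fl/fl (1.66).

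Col4a5, encoded beside Col4a6, shared the fall at day 3 but not the level at day 7. It went from 17.5, 12.3 and 12.6 CPM at S7fl/fl baseline to 2.72, 2.14, 1.61, 0.698 and 1.20 at day 3 and 9.99, 5.31 and 6.07 at day 7. In MyS7KO it went from 13.98, 14.4 and 7.83 CPM to 3.92, 1.91, 1.19, 1.18 and 1.44 and then 18.8, 7.54, 18.1 and 8.81. Day 3 lay below the other times without overlap, and in MyS7KO baseline and day 7 overlapped.

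The change of Col4a5 at day 3 was -3.06 ± 0.41 and -2.62 ± 0.40 (adjusted p 1.94e-06 and 1.04e-05). From day 3 to day 7 it rose by 2.07 ± 0.42 and 2.76 ± 0.39 (adjusted p 0.00122 and 1.13e-05). Day 7 against baseline did not pass in either genotype (-0.99 ± 0.44, adjusted p 0.0655, and 0.14 ± 0.40, adjusted p 0.794). In S7fl/fl that difference was called under 9 alternatives, among them DESeq2, limma-voom, sex as a covariate and leaving out S7fl/fl day 7 replicate 2.

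Type VI collagen, assembled from the Col6a1, Col6a2 and Col6a3 chains, anchors cells to the surrounding matrix. Col6a1 (chr10:76708792-76726168, minus strand) stood at 86.7, 65.05 and 62.1 CPM at S7fl/fl baseline, 27.5, 26.4, 15.4, 8.57 and 15.7 at day 3 and 89.96, 33.3 and 43.05 at day 7. In MyS7KO it stood at 94.3, 72.8 and 36.5 CPM, then 33.4, 22.9, 18.2, 15.4 and 14.3, then 184, 44.1, 140 and 83.3. Day 3 lay below both other times in each genotype, and baseline and day 7 overlapped.

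Col6a1 fell at day 3 by 1.93 ± 0.45 and 1.70 ± 0.45 (adjusted p 0.00102 and 0.00271) and rose by 1.57 ± 0.45 and 2.43 ± 0.43 from day 3 to day 7 (adjusted p 0.0175 and 0.000177). Day 7 against baseline did not pass (-0.36 ± 0.50 and 0.74 ± 0.48, adjusted p 0.576 and 0.222). Col6a2 followed with -2.004 ± 0.47 and -1.81 ± 0.46 at day 3 and 1.61 ± 0.47 and 2.41 ± 0.44 from day 3 to day 7, all called. The S7fl/fl rises from day 3 to day 7 ended without day 7 replicate 2 for Col6a1 (1.03, adjusted p 0.181) and Col6a2 (1.09, adjusted p 0.176). Col6a3 did not pass at day 3 (adjusted p 0.179 and 0.152) and rose from day 3 to day 7 in MyS7KO (1.61 ± 0.51, adjusted p 0.0162), a call that ended without MyS7KO day 7 replicate 1 (1.08, adjusted p 0.106).

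Col6a6, an alternative to the Col6a3 chain, took another course. It stood at 10.7, 8.77 and 9.96 CPM at S7fl/fl baseline, 0.642, 0.453, 0.739, 0 and 0.0571 at day 3 (0 to 13 counts), and 0.869, 0.305 and 0.0557 at day 7. Those of MyS7KO were at 13.0, 13.6 and 5.35 CPM, then 0.298, 0.621, 0.238, 0.0623 and 0.2398, then 3.14, 0.256, 2.097 and 0.805. All infarct libraries lay below all baseline libraries of their genotype. The fitted falls were -4.67 ± 0.67 and -5.08 ± 0.68 at day 3 (adjusted p 5.29e-06 and 2.06e-06) and -4.54 ± 0.81 and -2.75 ± 0.62 at day 7 (adjusted p 0.000116 and 0.00144). From day 3 to day 7 Col6a6 was called higher in MyS7KO and not in S7fl/fl. That rise was lost without MyS7KO day 7 replicate 1 (1.76, adjusted p 0.0792) and with limma-trend on FPKM at pseudocount 1 (adjusted p 0.16). Of the other alternative chains, Col6a4 was not detected and Col6a5 was below the filter.

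The multiplexins Col15a1 and Col18a1 carry the fragments restin and endostatin at their ends. Col15a1 stood at 134, 82.4 and 97.5 CPM at S7fl/fl baseline, 37.9 to 112 at day 3 and 138, 65.6 and 71.96 at day 7. The MyS7KO libraries stood at 153, 98.6 and 48.2 CPM, then 73.6 to 122, then 279.9, 75.8, 259 and 158. Libraries of all times overlapped, and of the 6 comparisons of times Col15a1 was called in 1, day 7 against day 3 in MyS7KO (1.09 ± 0.38, adjusted p 0.0283). That call ended under 9 alternatives, among them leaving out MyS7KO day 7 replicate 1 (0.85, adjusted p 0.112) or replicate 4 (0.91, adjusted p 0.0904), or any of MyS7KO day 3 replicates 2, 4 and 5 (adjusted p 0.0522 to 0.0605). Day 7 against baseline in MyS7KO, not called (0.95 ± 0.44, adjusted p 0.0887), passed without baseline replicate 1 (1.42, adjusted p 0.0336) or day 7 replicate 3 (1.22, adjusted p 0.0259). Col18a1 ranged from 17.6 to 82.8 CPM and was called in none of these comparisons. Its S7fl/fl difference of day 7 against baseline was called lower with only the groups compared (-0.92) and without day 7 replicate 2 (-1.27).

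Of the transmembrane collagens, 3 were lower after infarction. Col23a1 stood at 3.26, 2.77 and 1.97 CPM at S7fl/fl baseline, 0.686 to 1.14 at day 3 and 0.501 to 1.22 at day 7, with both infarct times below baseline. It changed by -1.48 ± 0.33 and -1.54 ± 0.39 (adjusted p 0.000511 and 0.00226), and in MyS7KO by -1.84 ± 0.34 and -1.31 ± 0.35 (adjusted p 6.19e-05 and 0.00459). The MyS7KO day 7 call ended without baseline replicate 2 (-0.999, adjusted p 0.0526). Col13a1 fell at day 3 in both genotypes (-1.86 ± 0.53 and -1.99 ± 0.53, adjusted p 0.00411 and 0.00216) and was lower at day 7 in S7fl/fl (-2.37 ± 0.65, adjusted p 0.0043). Col25a1, which is known from neurons and muscle, had 8 to 20 counts in each baseline library and 0 to 3 in each day 7 library (adjusted p 0.0102 and 0.000779). It had 12 to 20 counts at MyS7KO baseline, the group through which it passed the filter, and at most 9 at S7fl/fl baseline. Col17a1, the hemidesmosomal collagen of skin, stayed at 0.0496 to 0.770 CPM without a call.

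The last 3 genes had separate courses. Col7a1, of anchoring fibrils, stood at 2.52, 3.68 and 2.99 CPM at S7fl/fl baseline, 1.83 to 2.35 at day 3 and 6.08, 3.72 and 3.29 at day 7. It rose from day 3 to day 7 in both genotypes (1.07 ± 0.23 and 0.98 ± 0.22, adjusted p 0.00176 and 0.000895). It fell at day 3 in MyS7KO (-0.80 ± 0.23, adjusted p 0.00432) and in S7fl/fl (-0.56 ± 0.24, adjusted p 0.0428), where the call ended under 12 alternatives, among them leaving out baseline replicate 2 or 3 or day 3 replicate 1, 3 or 5 (adjusted p 0.0664 to 0.194).

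Col28a1, described in peripheral nerve, was lower at day 3 in both genotypes (adjusted p 0.00765 and 0.0118), and the MyS7KO call ended without baseline replicate 2 (-1.28, adjusted p 0.122). Its lower level at day 7 in S7fl/fl (adjusted p 0.0206) was no longer called without baseline replicate 3 or day 7 replicate 3 or 4 (adjusted p 0.0508 to 0.101). Col26a1 stood at 2.08, 0.383, 1.46 and 0.805 CPM at day 7 in MyS7KO against 0.0496 to 0.3096 at baseline, without overlap (3.04 ± 1.01, adjusted p 0.0182). That call ended without MyS7KO baseline replicate 2 (2.71, adjusted p 0.0789) or replicate 3 (2.64, adjusted p 0.075).

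Besides the MyS7KO rise of Col20a1, some of the calls given above were also lost with the 3 mixed-sex libraries left out (adjusted p 0.0553 to 0.0847). These were the S7fl/fl rises from day 3 to day 7 of Col3a1, Col5a1, Col6a1, Col6a2 and Col12a1, the S7fl/fl falls at day 3 of Col7a1 and Col16a1, the MyS7KO falls at day 3 of Col5a3 and Col8a2, and the MyS7KO rises from day 3 to day 7 of Col6a3 and Col15a1.

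The make-up of collagen RNA differed between times. Fibrillar genes held 17.8 to 24.1% of the summed FPKM of all 44 genes in the S7fl/fl baseline libraries, 31.8 to 41.6% at day 3 and 50.7 to 59.0% at day 7. In MyS7KO they held 18.3 to 20.4%, 31.0 to 39.8% and 50.7 to 57.8%. The fibrillar ranges of the 3 times were apart in both genotypes, including the libraries that stood apart in total collagen. Type IV genes held 45.1 to 57.6%, then 36.7 to 48.1%, then 19.1 to 23.7% in S7fl/fl, and 48.1 to 53.7%, 38.5 to 50.0% and 18.9 to 28.9% in MyS7KO. The type IV ranges of day 7 lay below those of both earlier times, which overlapped each other. These shares use the length column of the deposited tables, which counts all annotated exons (12426 bases for Col1a2 against 6563 for Col1a1), and they were not tested.

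**Figure D3:**
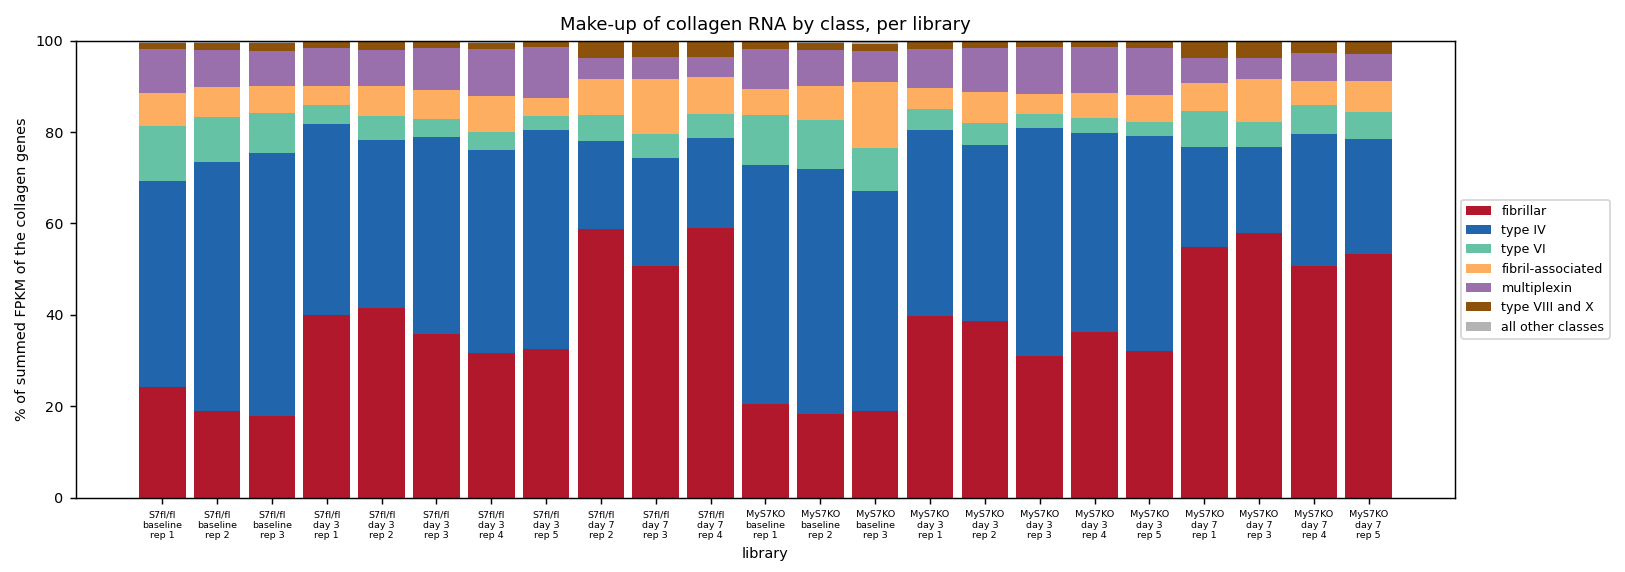
Share of the summed FPKM of the 44 collagen genes held by each class (stacked, in percent) in each library. The fibrillar share (red) lies between 17.8 and 24.1% in all baseline libraries and between 50.7 and 59.0% in all day 7 libraries, while type IV (blue) is the largest class at baseline.

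Chains of 1 molecule kept steady or shifting proportions. Col4a1 per Col4a2 stayed between 1.20 and 1.45 (FPKM ratio) in all 23 libraries, and Col6a1 per Col6a2 between 1.80 and 2.56, although Col6a1 itself ranged from 8.57 to 184 CPM. Col1a1 per Col1a2 was 1.11 to 1.57 at S7fl/fl baseline, 2.005 to 2.16 at day 3 and 1.83 to 1.87 at day 7. In MyS7KO it was 1.01 to 1.61, 1.93 to 2.23 and 1.73 to 2.04. The baseline ratios of these type I chains lay below all others in both genotypes. Col5a3 per Col5a2 was 0.586 to 0.7599 at S7fl/fl baseline, 0.247 to 0.404 at day 3 and 0.103 to 0.143 at day 7. In MyS7KO it was 0.511 to 0.894, 0.210 to 0.357 and 0.108 to 0.165, so that each later time lay below the earlier ones without overlap. The ratios are descriptions and were not tested.

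Genes that make, process, link and bind collagen were described from lists of the pathway. Of 21 genes for folding and hydroxylation, 11 were higher and 7 lower at day 3 in S7fl/fl and 11 and 5 in MyS7KO. The higher calls, 52.4% in each genotype, lay above the 29.9 and 30.7% of all genes called higher, and the lower calls, 33.3 and 23.8%, near or below the 34.1 and 35.2% called lower. At day 7 against baseline 10 were higher and 5 lower in S7fl/fl and 11 and 5 in MyS7KO, beside 24.8 and 25.4% of all genes, then 22.2 and 21.8%. P4hb, the beta subunit of prolyl 4-hydroxylase, rose at day 3 from 411 to 427 CPM up to 907 to 1006 in S7fl/fl and from 404 to 426 up to 929.9 to 1038 in MyS7KO (log2 change 1.21 and 1.24, adjusted p 1.41e-10 and 8.65e-11). It then fell to 589.5 to 694 and 541 to 666 CPM at day 7. P3h2, a prolyl 3-hydroxylase known to act on type IV collagen, fell at day 3 from 30.9 to 43.4 CPM to 1.08 to 2.91 in S7fl/fl and from 37.1 to 46.2 to 1.04 to 2.21 in MyS7KO, by 4.21 and 4.71 on the log2 scale. Serpinh1, which encodes the collagen chaperone HSP47 and was named after its values were seen, was called in none of the 6 comparisons of times.

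Of the 10 tested genes for cleavage of procollagen and fibre assembly, 7 were lower and 0 higher at day 3 in S7fl/fl, and 4 lower and 0 higher in MyS7KO, beside 34.1 and 35.2% of all genes called lower. The MyS7KO share, 40%, was near that background. From day 3 to day 7, 3 and 7 were higher and 0 lower, beside 11.5 and 20.5% of all genes called higher. Fmod, a small proteoglycan that guides fibre assembly, stood at 8.26 to 13.5, then 0.254 to 1.60, then 7.38 to 21.8 CPM in S7fl/fl and at 3.62 to 14.2, then 0.2997 to 1.24, then 8.94 to 33.2 CPM in MyS7KO, lowest at day 3 in both. Adamts14, a procollagen N-proteinase, fell at day 3 by 2.64 and 2.54 on the log2 scale and was still lower at day 7 (-1.96 and -1.72), all called. Adamts2, the main N-proteinase of type I procollagen, rose from day 3 to day 7 by 1.90 and 2.36 (adjusted p 0.00509 and 0.000211), in S7fl/fl not without day 7 replicate 2 (1.51, adjusted p 0.0529).

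All 6 cross-linking genes were tested, and 3 were higher at day 7 than at baseline in S7fl/fl and 5 in MyS7KO, with 0 lower, beside 24.8 and 22.2% of all genes called higher. Tgm2, a transglutaminase, was higher already at day 3, at 774 to 1153 against 155 to 218 CPM in S7fl/fl and 729.9 to 996 against 96.3 to 228 in MyS7KO (log2 change 2.27 and 2.24, adjusted p 2.22e-08 and 2.37e-08). Lox, a lysyl oxidase, rose from 18.5 to 24.1 CPM at S7fl/fl baseline to 44.3 to 92.8 at day 7 and from 12.4 to 24.6 in MyS7KO to 72.3 to 162 (adjusted p 0.00518 and 0.000334). Of the 10 tested receptors and uptake genes, 7 were lower at day 3 in S7fl/fl and 4 in MyS7KO, beside 34.1 and 35.2% of all genes, so that the MyS7KO share of 40% was near the background. Itga1, an integrin chain that binds collagen, fell by 2.03 and 2.02 at day 3. Mrc1, the mannose receptor of macrophages, which also takes up collagen, stood at 1335 to 1830 CPM at S7fl/fl baseline and 829.5 to 953 at day 7, and in MyS7KO at 1644 to 2284 and 578 to 972, a fall that passed in both (adjusted p 0.00083 and 1.05e-06).

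Markers of other cell types were read beside the collagen genes. Fibroblast markers (14 genes without collagens) summed to 1963 to 2491 CPM at S7fl/fl baseline, 545 to 677 at day 3 and 795 to 1367 at day 7, and to 1178 to 2270, 563 to 756 and 885 to 1876 in MyS7KO. At day 3, 11 of 14 were lower and 1 higher in S7fl/fl, and from day 3 to day 7, 8 were higher and 0 lower. In MyS7KO the counts were 10 lower and 2 higher, then 12 higher and 0 lower. The shares of all genes were 34.1% lower and 29.9% higher at day 3 and 11.5% higher from day 3 to day 7 in S7fl/fl, and 35.2, 30.7 and 20.5% in MyS7KO. Mural markers (10 genes) summed to 1317 to 1893, 139.5 to 238 and 89.8 to 271 CPM in S7fl/fl and to 1078 to 1774, 160.2 to 272 and 73.5 to 589 in MyS7KO. Endothelial markers (10 genes) summed to 1881 to 2437, 340 to 771 and 237 to 479.5 CPM and to 1102 to 2571, 460.3 to 802 and 195 to 1239. No fibroblast, mural or endothelial marker was at 0 in all libraries of any group.

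Most other lists fell at day 3 as well, but the neutrophil and dendritic cell sums overlapped those of baseline or rose. Neutrophil markers summed to 109.4 to 113.2 CPM at baseline and 123.8 to 211.8 at day 3 in S7fl/fl. In MyS7KO they summed to 93.17 to 132, then 101.7 to 150.7 CPM. Dendritic markers summed to 110.4 to 129.6, then 96.96 to 123.4 CPM in S7fl/fl and to 102.7 to 116.3, then 99.77 to 152.9 in MyS7KO. All 10 mural, 10 endothelial, 10 cardiomyocyte, 5 Schwann cell, 5 NK cell and 3 T cell markers tested were called lower at day 3 than at baseline in both genotypes, and of 4 mesothelial markers tested 2 were in S7fl/fl and 1 in MyS7KO. Of 5 B cell markers, 5 and 1 were lower. Of 7 neutrophil markers tested, 2 and 4 were lower, with 1 higher in each genotype. Of 7 dendritic markers, 4 and 3 were lower, with 3 higher in each genotype. Over all genes tested, 34.1% were called lower at day 3 in S7fl/fl and 35.2% in MyS7KO. The MyS7KO counts of the mesothelial and B cell lists lay below that share. Cardiomyocyte markers summed to 97.4 to 129, 13.6 to 30.6 and 17.9 to 61.3 CPM in S7fl/fl and to 82.8 to 105, 16.8 to 36.0 and 16.4 to 75.1 in MyS7KO. Schwann cell markers summed to 8.34 to 12.3, 0.444 to 2.14 and 0.724 to 2.72 CPM and to 6.096 to 10.7, 1.06 to 2.14 and 1.26 to 2.097, low at both infarct times, as was Col28a1 in S7fl/fl. In MyS7KO Col28a1 differed, at 0.617 to 0.831 CPM at day 7, within its baseline range of 0.413 to 0.981. From day 3 to day 7 in S7fl/fl, 1 of 10 mural and 0 of 10 endothelial, 0 of 10 cardiomyocyte and 0 of 5 Schwann cell markers were called higher. In MyS7KO the counts were 3, 0, 2 and 0. The shares of all genes called higher were 11.5 and 20.5%. Macrophage markers (10 genes), those of the labelled cell type, summed to 14350 to 16140, 16520 to 19030 and 23080 to 25450 CPM in S7fl/fl and to 11430 to 15750, 14550 to 16530 and 15240 to 19610 in MyS7KO. The collagen falls at day 3 moved with most of these non-macrophage lists. The rises to day 7 moved with the fibroblast list, though not with it alone. T cell markers summed to 5.965 to 8.66 CPM at day 3 and 11.4 to 19.2 at day 7 in S7fl/fl. In MyS7KO they summed to 6.08 to 9.54, then 19.7 to 25.7 CPM. B cell markers went from 6.98 to 10.3 up to 12.1 to 27.4 CPM in S7fl/fl, and overlapped between these times in MyS7KO. The part of these lists in these results was not tested.

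Single genes did not run in parallel. Pdgfra, a receptor that marks fibroblasts, was lower than at baseline at day 3 and day 7 in both genotypes (log2 change -2.55 and -2.20 in S7fl/fl, -2.69 and -1.43 in MyS7KO). Col1a1 per Pdgfra was 3.01 to 4.09 (FPKM ratio) at S7fl/fl baseline, 23.2 to 75.3 at day 3 and 81.6 to 121 at day 7. In MyS7KO the ratio was 2.71 to 4.11, 36.3 to 78.6 and 76.03 to 137, so that Col1a1 and this marker moved apart. Postn and Cthrc1, genes of activated fibroblasts, rose from baseline to day 7 by 3.13 and 6.01 in S7fl/fl and 3.89 and 6.72 in MyS7KO. Col4a1 per Pecam1, an endothelial gene, was 1.19 to 1.34 at S7fl/fl baseline and 3.65 to 4.78 at day 7, and 1.201 to 1.51 and 3.73 to 6.71 in MyS7KO.

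**Figure D4:**
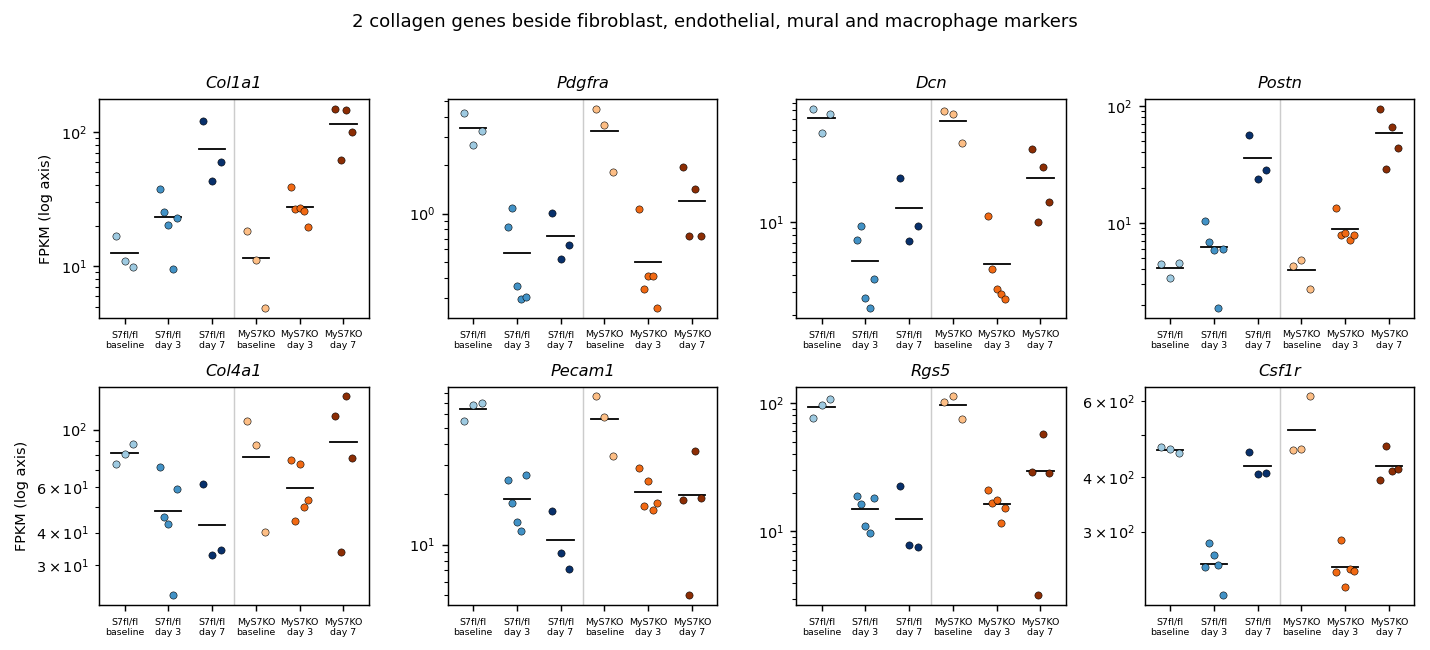
FPKM (log axis) of Col1a1 and Col4a1 beside the fibroblast genes Pdgfra, Dcn and Postn, the endothelial gene Pecam1, the mural gene Rgs5 and the macrophage gene Csf1r in each library; lines are group means. The group means of Col1a1 and Postn are highest at day 7, whereas those of Pdgfra, Dcn, Pecam1 and Rgs5 are highest at baseline.

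The study was built to ask what loss of Smad7 in myeloid cells changes. At baseline edgeR called 0 of 39 collagen genes between MyS7KO and S7fl/fl, beside 0.0121% of all genes called. At day 3 it called 0, beside 0.0121%, and at day 7 it called 0, beside 0.0181%. An unadjusted p under 0.05 was reached by 0, 0 and 9 of the 39 at the 3 times, beside 2.27, 3.59 and 13.1% of all genes, so that the 9 of day 7 (23.1%) stand beside a raised background. DESeq2 and limma-voom also called 0 collagen genes at each time. The median log2 change was -0.08, 0.17 and 0.76 at the 3 times, against -0.03, 0.00 and -0.01 over all genes tested. By sign, 7 of 39 collagen genes were higher in MyS7KO at baseline, 29 at day 3 and 34 at day 7, beside 44.5, 49.5 and 49% of all genes. At baseline 0 of the 11 fibrillar genes were higher by sign, so that the sign counts leaned one way at baseline and the other way later, with 0 called each time. The lean at baseline rested partly on 1 library. Without MyS7KO baseline replicate 3 the baseline differences of Col1a1, Col3a1, Col4a1, Col4a2 and Col15a1 were positive (0.22, 0.07, 0.26, 0.23 and 0.27). They were also positive with limma-voom.

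The lowest p-values at day 7 were those of Col4a1 (1.05 ± 0.43, 2.07-fold, adjusted p 0.338), Col15a1 (1.07 ± 0.44, adjusted p 0.339) and Col6a6 (1.91 ± 0.81, adjusted p 0.351). None passed, and the groups overlapped for each: Col4a1 was at 838, 251, 1020 and 589.8 CPM in MyS7KO and at 467, 248 and 264 in S7fl/fl. MyS7KO replicates 1 and 4 carried the high values and replicate 3 the low one. At baseline the lowest p-values were those of Col28a1 (-0.98 ± 0.57), Col25a1 (1.07 ± 0.63) and Col14a1 (0.31 ± 0.23), each with an adjusted p of 0.999. At day 3 they were those of Col28a1 (-1.13 ± 0.58), Col11a1 (0.73 ± 0.45) and Col4a6 (0.77 ± 0.54), each with an adjusted p of 0.982.

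Among the abundant genes the day 7 differences were 0.59 ± 0.46 for Col1a1, 0.76 ± 0.47 for Col3a1, 0.98 ± 0.42 for Col4a2 and 0.14 ± 0.21 for Col14a1. Of the classes, type VI, multiplexin and type IV genes had the medians 1.18, 1.01 and 0.94, and fibrillar genes 0.59. Markers moved alongside: 10 of 10 endothelial, 9 of 10 mural and 13 of 14 fibroblast markers were higher in MyS7KO at day 7 by sign, with medians of 1.00, 1.19 and 0.71 and 0 called. The summed macrophage markers were lower in MyS7KO at day 7 without overlap (15240 to 19610 against 23080 to 25450 CPM), also without Lyz2 (11210 to 14960 against 15920 to 16530). By sign, 9 of these 10 markers were lower, with Lyz2 the 1 called. The part of these lists in the collagen difference was not tested, and sex differed in the same way as genotype.

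Whether the genotype effect on collagen genes changed with time was tested directly. EdgeR called 0 of 39 for day 3 minus baseline, 0 for day 7 minus baseline and 0 for day 7 minus day 3, beside 0% of all genes in each. Unadjusted p under 0.05 was reached by 0, 3 and 1 of 39 collagen genes, beside 4.48, 5.21 and 10.4% of all genes, so that these counts were near or below the background. DESeq2 and limma-voom called 0 as well. The lowest adjusted p of a collagen gene was 0.447, for Col28a1 in the last of these (2.11 ± 0.84). Differences in the number of calls between the genotypes, such as 20 against 30 from day 3 to day 7, are therefore not shown to be differences between genotypes.

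**Figure D5:**
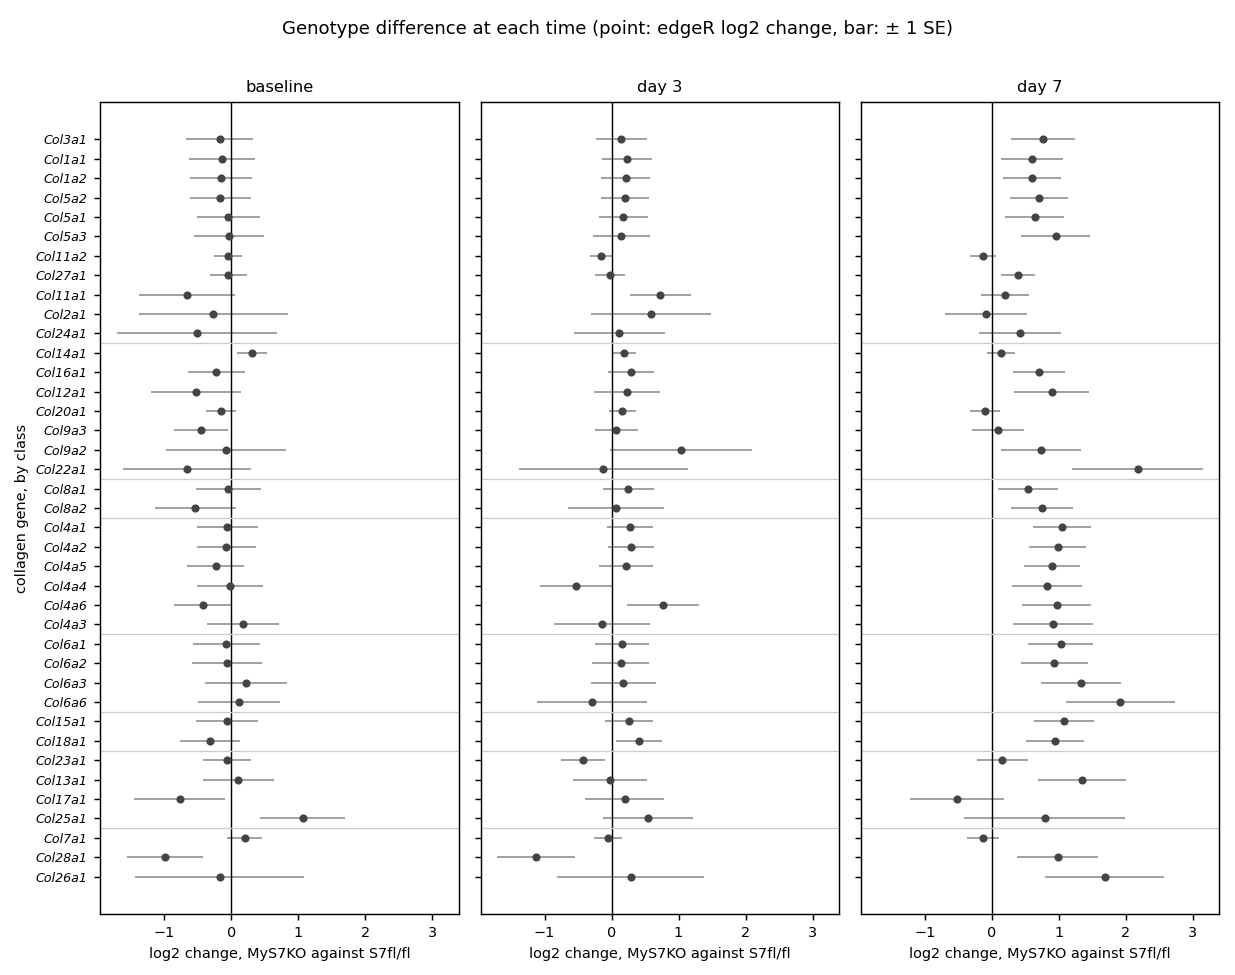
Log2 change of MyS7KO against S7fl/fl (x axis) for each of the 39 tested collagen genes (y axis, by class) at baseline, day 3 and day 7; points are edgeR estimates and bars are ± 1 SE. Of the 39 points 7 are positive at baseline, 29 at day 3 and 34 at day 7, and 0 passed at any time.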

How the data were processed

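Poly(A) RNA of sorted cardiac macrophages was measured in 23 libraries, grouped by the labels. The deposited tables hold the authors' read counts per gene, used as they stand, and the authors' FPKM values. TopHat2 2.0.9, Cufflinks 2.1.1 and HTSeq 0.6.1, and the builds mm10 and GRCm38.p6, are named in the submitters' processing notes, which give no roles. Strandedness is not given in the sources used here, so reads where genes overlap, such as the starts of Col4a1 and Col4a2, cannot be assigned to 1 of them. Coordinates of all 44 collagen genes equal those of the GENCODE annotation of GRCm38.

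The counts were scaled by TMM, filtered with filterByExpr on the 6 groups (16545 genes kept) and fitted in edgeR 4.0.16 (R 4.3.3) by its robust quasi-likelihood method, each group having its own mean. Tests were two-sided. The Benjamini-Hochberg adjustment covered the 16545 genes, and genes with an adjusted p under 0.05 are the calls. CPM is counts per 1000000 of the library total over the genes kept by the filter, scaled by TMM. Alternatives were DESeq2 1.42.0, limma-voom with quality weights, limma-trend on deposited FPKM (limma 3.58.1, pseudocounts 1 and 0.1, with and without the filter), RLE scaling, no filter, only the groups compared, a replicate block, sex as a covariate, removal of mixed-sex libraries (minor signal over 2%) and each library left out. The fit was also run on simulated counts with changes put into the S7fl/fl day 7 group only, and the outcome is not given here. A gene with at most 3 counts in every library was called not detected.

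The collagen genes and all lists were chosen with earlier results of these data known. Named genes are the 6 with the highest median FPKM, the 4 called collagen genes with the lowest p per direction between times, the 3 with the lowest p per genotype comparison, Smad7 and Lyz2, the 2 called genes with the lowest p of each pathway list, and all genes not tested. The other collagen genes, the markers and Serpinh1 were added after their values were seen, to complete the description. Each of the 35 pairs of libraries of 1 group was further apart than counting error alone gives, with a chi-square divided by its degrees of freedom of 9.35 or more. The libraries held 15479402 to 23884938 counts. The number of libraries and counts at or under 3 limit the precision of low genes, and read counts are not independent molecules.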

Additional observations from a re-analysis of the deposited data

Results flagged for a closer look

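Of 108 sets of values of a collagen gene in a group of 4 or 5 libraries, 10 held a library far from the others by Dixon's criterion, and chance flags about 1 in 20 such sets. In 9 of the 10 the library was MyS7KO day 3 replicate 1, which also had the highest collagen share of its group. It stood at 251.9 CPM for Col1a2 against 123.9 to 157.8 in the other 4 libraries, at 498 CPM for Col3a1 against 206.9 to 267.5, and at 93.76 CPM for Col5a2 against 36.61 to 44.41. For Col5a3 it was at 20.32 CPM against 6.354 to 9.835, for Col6a3 at 49.54 CPM against 15.59 to 21.05 and for Col8a1 at 44.67 CPM against 18.4 to 22.77. For Col12a1 it was at 12.92 CPM against 3.772 to 6.416, for Col4a5 at 3.925 CPM against 1.183 to 1.908 and for Col26a1 at 0.4969 CPM against 0 to 0.06229. The remaining set was Col9a2 at S7fl/fl day 3, where replicate 1 stood at 0.2471 CPM against 0 to 0.06475.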

How the results depend on the processing

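None of 185 called results changed direction under any alternative run. They kept their call in 3271 fits and lost it in 171. Of 47 results that were not called, 817 fits kept them uncalled in the same direction, 27 made them a call and 34 turned their direction. For the 6 comparisons of times (S7fl/fl day 3 and day 7 against baseline, day 7 against day 3, then the same in MyS7KO) the number of collagen genes called was 18, 25, 20, 19, 23 and 30. It was 18, 24, 20, 19, 23 and 30 under RLE scaling, 18, 23, 17, 18, 22 and 28 with no filter, 18, 27, 21, 19, 23 and 31 with DESeq2, 17, 27, 19, 23, 24 and 31 with limma-voom, 19, 28, 17, 20, 22 and 26 with only the groups compared and 18, 22, 20, 19, 21 and 30 with sex as a covariate. Without mixed-sex libraries, S7fl/fl day 7 against day 3 gave 15. Leaving out 1 library gave 15 to 20, 21 to 24, 12 to 20, 14 to 19, 19 to 23 and 24 to 33, and the genotype and interaction comparisons 0 throughout. The lowest of these for S7fl/fl day 7 against day 3, 12, came without S7fl/fl day 7 replicate 2.

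The turned directions were those of small differences that had not passed. With limma-voom the log2 difference between genotypes at baseline was 0.1293 for Col1a1, 0.01348 for Col3a1, 0.1312 for Col4a1, 0.1029 for Col4a2 and 0.1495 for Col15a1. With 1 library left out it ranged from -0.6402 to 0.2225 for Col1a1, -0.4626 to 0.07217 for Col3a1, -0.3407 to 0.2598 for Col4a1, -0.3345 to 0.2253 for Col4a2 and -0.4978 to 0.2666 for Col15a1. At day 3 it ranged from -0.129 to 0.4038 for Col3a1, and at day 7 from -0.03605 to 0.3589 for Col14a1. In S7fl/fl, day 7 against day 3 ranged from -0.522 to 0.01721 for Col4a1, -0.3721 to 0.153 for Col4a2 and -0.1461 to 0.4624 for Col15a1, and day 7 against baseline from -0.6004 to 0.0823 for Col15a1. In MyS7KO, day 7 against baseline ranged from -0.1122 to 0.5246 for Col4a1 and -0.05579 to 0.5402 for Col4a2, and day 3 against baseline from -0.4667 to 0.3546 for Col15a1. The cause was not tested.

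With the replicate number as a block the 6 counts were 19, 26, 21, 22, 26 and 31, and 0 in every other comparison. Under the block Col15a1 turned to 0.01429 at S7fl/fl day 7 against baseline and to 0.0778 at MyS7KO day 3 against baseline, and Col4a2 to 0.08267 at S7fl/fl day 7 against day 3. The numbers were not taken to pair the libraries: the deviations from the group means of 10 same-numbered pairs, 1 library of each genotype at the same time, correlated between -0.38 and 0.31, and in 4 of 10 the own number correlated best. The number of libraries per group and the few counts of low genes such as Col11a1, Col24a1 and Col26a1 before day 7 limit the sizes of their changes.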
